A study of Homo sapiens with 3 samples.

Results

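This is the net change of nuclear poly(A)+ RNA in RKO cells 2 h after UV irradiation, set against the same cells at 0 h. RKO is an established line from a poorly differentiated human colon carcinoma. The cells were UV irradiated and left to recover for 2 h in one library, and were at baseline in the other, with nuclear RNA in both and no other agent named. Of the 3 libraries of the series, 2 were used, and the library of the intermediate recovery time was left out. In 3ʹREADS, the fragment next to the poly(A) tail is sequenced, so that each read marks the polyadenylation site (pA) of a transcript. The members are the genes with at least 10 reads over the 2 libraries, 5149 of the 9431 genes in the table, with the reads of all pAs of a gene added up. A further 3895 genes had 1 to 9 reads and 387 had none. At the edge of this rule stood 219 genes with exactly 10 reads, of which 31 were called below, and 247 genes with 9 reads.

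UV light leaves bulky lesions in DNA that stall RNA polymerase II and are removed by nucleotide excision repair. Stalling activates p53, which induces cell cycle inhibitors and death genes, and stress kinases, which induce AP-1 and other immediate early genes. Immediate early genes are known for short transcription units and short-lived mRNAs. The 3ʹ end of an mRNA is made by cleavage and polyadenylation at a pA. A pA in the 3ʹ-most exon gives the full coding sequence, and a choice between several of them (3ʹUTR-APA) changes the length of the 3ʹUTR. A pA in an intron ends the transcript early (intron-APA) and usually truncates the protein. U1 snRNP, which recognises 5ʹ splice sites, is known to hold intronic pAs in check.

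The library at 2 h held 438040 reads and that at 0 h 433261 reads, and 1 read was worth 2.28 RPM (reads per 1e+06 reads) at 2 h and 2.31 RPM at 0 h. With 1 library at each time there is no replicate check, so every test compares these 2 libraries and not the conditions, and intervals cover counting error only. RPM are shares of a library, so that a change in the total amount of RNA per cell cannot be seen, and fewer cells expressing a gene and less RNA per cell cannot be told apart. The label was checked on cell type markers. KRT8, a keratin of simple epithelia, had 26 reads at 2 h and 4 at 0 h, KRT18, its partner, had 4 reads at 2 h and 2 at 0 h, and EPCAM, an epithelial adhesion protein, had 0 reads at 2 h and 7 at 0 h. All KRT8 reads at both times and all KRT18 reads at 2 h were at intronic pAs. CDH1 and KRT19 were not among the genes listed, and neither were the 6 fibroblast and the 6 blood and endothelial markers. CA2 had 1 read at 2 h and 0 at 0 h, and CDX1 had 0 reads at 2 h and 1 at 0 h, these being the listed ones of 8 markers of differentiated colon epithelium.

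Of the 5149 genes, 439 were called higher at 2 h (8.53% of genes tested) and 690 were called lower (13.4%). A call required a Benjamini-Hochberg adjusted p under 0.05 in Fisher's exact test of the reads of a gene against the rest of the library, and an RPM ratio beyond 2-fold. The median log2 ratio, with 2 RPM added to each value, was -0.09 over all genes tested, and 1.90 in the higher and -1.72 in the lower genes. Summed over the higher genes, there were 60489 3ʹ-most-exon reads at 2 h against 22687 at 0 h, with 4857 intronic reads at 2 h against 856 at 0 h. The lower genes summed to 23213 3ʹ-most-exon reads at 2 h against 69641 at 0 h, with 1644 intronic reads at 2 h against 3251 at 0 h. The calls leaned downwards, with 38.9% of them higher, and the lean depended on scaling, since TMM factors gave 48.9% higher and leaving the 10 most abundant genes out of the library totals gave 46.2%. Those 10 genes took 19.8% of the reads at 2 h and 17.1% at 0 h. On 3ʹ-most-exon reads alone, 273 genes (6.32% of 4319) were higher and 757 (17.5%) lower, so that 26.5% of the calls were higher.

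**Figure D1:**
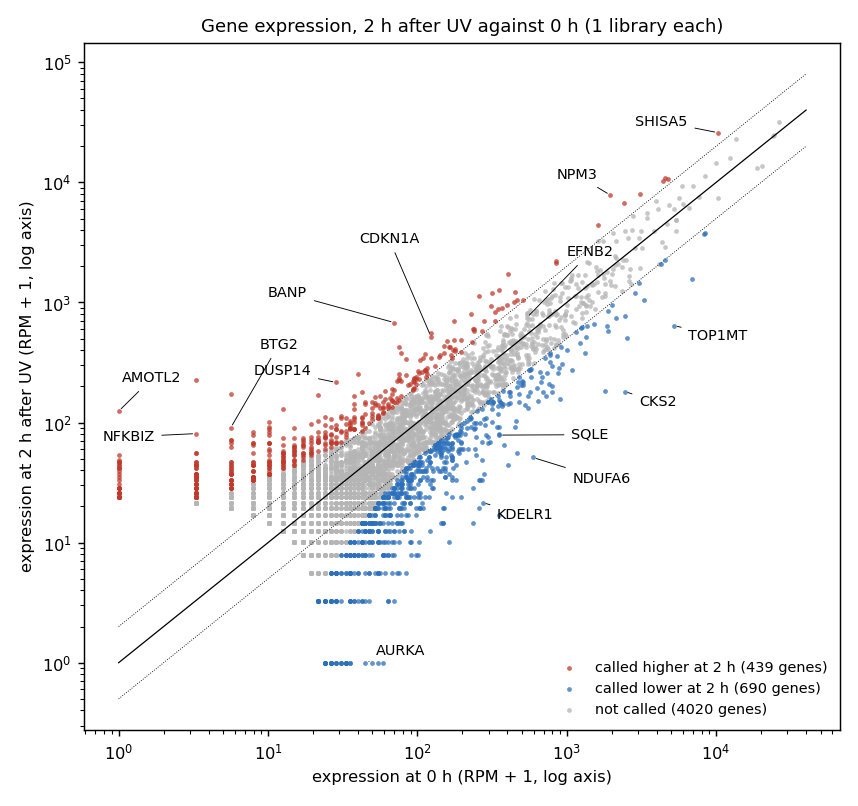
Expression of each of the 5149 genes at 2 h after UV (vertical axis) against 0 h (horizontal axis), in RPM with 1 added, both axes logarithmic. Red points are the 439 genes called higher and blue points the 690 called lower at 2 h, the solid line marks equal RPM and the dotted lines 2-fold.

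Among genes with enough reads to rank, the largest rise was in BANP, a nuclear matrix protein known to bind p53. BANP had 297 reads at 2 h and 30 at 0 h, 9.79-fold higher (95% interval 6.72–14.8, Fisher's exact test, adjusted p = 9.04e-54). DUSP14, a phosphatase of MAP kinases, had 94 reads at 2 h and 12 at 0 h, 7.75-fold higher (4.23–15.5). PTGES3, the HSP90 co-chaperone p23, had 110 reads at 2 h and 17 at 0 h, 6.40-fold higher (3.82–11.4). In these genes the added reads were intronic. BANP had 297 reads in introns and 0 in the 3ʹ-most exon at 2 h, against 23 and 7 at 0 h. For DUSP14 there were 83 reads in introns and 11 in the 3ʹ-most exon at 2 h, against 0 and 12 at 0 h, and for PTGES3 97 and 13 at 2 h, against 7 and 10 at 0 h.

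Other rises lay in the 3ʹ-most exon, and so in full-length transcripts. EMC6, a subunit of a complex that inserts proteins into the ER membrane, had 186 reads at 2 h and 32 at 0 h, all in the 3ʹ-most exon, 5.75-fold higher (3.94–8.65). GTF3C5, a subunit of the RNA polymerase III factor TFIIIC, had 167 reads at 2 h and 33 at 0 h, and TBCC, a tubulin folding cofactor, had 494 at 2 h and 112 at 0 h. CRTC1, a coactivator of CREB, had 78 reads at 2 h and 18 at 0 h. KCTD15, a BTB domain protein, had 73 reads at 2 h and 16 at 0 h, and NME4, a mitochondrial nucleoside diphosphate kinase, had 149 at 2 h and 36 at 0 h. CPNE7, a calcium-dependent membrane-binding protein, combined both, with 152 3ʹ-most-exon and 92 intronic reads at 2 h, against 44 and 7 at 0 h. By amount, the largest rises were in genes already abundant at 0 h. SHISA5, a p53-induced ER protein with a role in cell death, had 11348 reads at 2 h and 4480 at 0 h (2.51-fold higher, 2.42–2.59), and NPM3, a nucleolar histone chaperone, had 3428 at 2 h and 849 at 0 h (3.99-fold higher, 3.70–4.31). GRAMD1A, a cholesterol transfer protein, had 4656 reads at 2 h and 2077 at 0 h and lost its call in edgeR's exact test with an assumed biological coefficient of variation of 0.2 (adjusted p = 0.0620). HSF1, the main transcription factor of the heat shock response, was among the largest in added reads, with 10152 at 2 h and 5869 at 0 h, but its ratio of 1.71 (1.66–1.77) was under the 2-fold limit.

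Among genes with at least 10 reads at 2 h and 50 at 0 h, the largest fall was in CKS2, a small subunit of cyclin-dependent kinases needed in mitosis. CKS2 had 79 reads at 2 h and 1056 at 0 h, 13.5-fold lower (10.7–17.2, Fisher's exact test, adjusted p = 6.66e-219). NDUFA6, a subunit of respiratory complex I, had 22 reads at 2 h and 256 at 0 h, 11.8-fold lower (7.60–19.1). GNL2, a nucleolar GTPase of the large ribosomal subunit, had 80 reads at 2 h and 775 at 0 h (9.79-fold lower, 7.77–12.5), and LAS1L, a ribosome biogenesis factor, had 14 at 2 h and 116 at 0 h. SNAPC1, a subunit of the complex that activates snRNA genes, had 12 reads at 2 h and 101 at 0 h. TOP1MT, the mitochondrial topoisomerase, had 281 reads at 2 h and 2256 at 0 h, 8.12-fold lower (7.17–9.22). The remaining genes among the 12 largest falls were CBFA2T2, a transcriptional corepressor (19 reads at 2 h, 175 at 0 h), B3GNT1, a glycosyltransferase (10 at 2 h, 85 at 0 h), LMAN2L, a lectin of the secretory pathway (24 at 2 h, 200 at 0 h), LRRC8A, a subunit of volume-regulated anion channels (14 at 2 h, 114 at 0 h), C2orf42 (14 at 2 h, 111 at 0 h) and TMEM138 (16 at 2 h, 121 at 0 h). In all 12, at least 10 of the reads at 2 h and nearly all reads at 0 h were in the 3ʹ-most exon. KDELR1, the receptor that returns proteins to the ER, had 9 reads at 2 h and 118 at 0 h, 13.3-fold lower (6.75–29.7), and was left out of the ranking by its minimum of 10 reads. So was RPL5, a ribosomal protein known to bind MDM2 and chosen after its values were seen, with 4 reads at 2 h and 70 at 0 h, 17.7-fold lower (6.61–66.7). GPAA1, which attaches GPI anchors, lost the most RPM among called genes, ahead of RPLP1 and TOP1MT, with 685 reads at 2 h and 2971 at 0 h. NAP1L1, a histone chaperone, with 5958 reads at 2 h and 8788 at 0 h, and PARK7, a protein of the oxidative stress response, with 5771 at 2 h and 8111 at 0 h, lost many reads but stayed within 2-fold.

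Reads at only 1 of the times were found for 40 of the higher and 34 of the lower genes, and folds for these are bounds against a floor of 3 reads in the empty library. AMOTL2, a scaffold protein of cell junctions, had 54 reads at 2 h and 0 at 0 h, at least 17.8-fold higher. FBXO18, a DNA helicase, had 23 reads at 2 h and 0 at 0 h, VAPB, an ER membrane protein, had 21 at 2 h and 0 at 0 h, and NLGN2, a synaptic adhesion protein, had 20 at 2 h and 0 at 0 h. Intronic pAs held 44 of the AMOTL2 reads, 17 of the FBXO18 reads, 21 of the VAPB reads and 17 of the NLGN2 reads. On the other side, CCDC174 had 0 reads at 2 h and 25 at 0 h, at least 8.43-fold lower. SMARCAD1, a chromatin remodeling helicase, had 0 reads at 2 h and 21 at 0 h, AURKA, a mitotic kinase, had 0 at 2 h and 19 at 0 h, and C9orf64 had 0 at 2 h and 15 at 0 h. GRB14, an adaptor of the insulin receptor, had 0 reads at 2 h and 23 at 0 h, and its reads were intronic.

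Of 21 p53 target genes tested, 8 were higher and 2 lower, against 8.53% and 13.4% of all genes tested, with a median log2 ratio of 0.91. CDKN1A, which encodes the cell cycle inhibitor p21, had 227 reads at 2 h and 53 at 0 h, 4.24-fold higher (3.13–5.83, Fisher's exact test, adjusted p = 9.89e-25). BTG2, an antiproliferative cofactor of deadenylation, had 39 reads at 2 h and 2 at 0 h (19.3-fold higher, 4.99–165). Both are textbook early targets of p53. The death genes were divided. BAX, an effector of mitochondrial permeabilisation, had 117 reads at 2 h and 49 at 0 h, and PMAIP1 (NOXA), which opposes MCL1, had 19 at 2 h and 1 at 0 h, while BAK1, the other effector, was lower with 2 at 2 h and 12 at 0 h. BAD, a BH3-only protein under kinase control, had 16 reads at 2 h and 36 at 0 h and was lower as well. Over the 13 genes of the BCL2 family tested, 2 were higher and 2 lower, with a median log2 ratio of 0.01, or -0.01 on 3ʹ-most-exon reads.

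Further p53 targets of other functions were also higher. GDF15, a stress cytokine, had 180 reads at 2 h and 77 at 0 h, and POLH, the polymerase that copies past UV lesions, had 31 at 2 h and 2 at 0 h. TP53I3, an oxidoreductase, had 66 reads at 2 h and 29 at 0 h, and TRIAP1, an antiapoptotic protein, had 14 at 2 h and 2 at 0 h. PERP, a desmosomal protein, and MDM2, the ubiquitin ligase of p53, were lower, PERP with 63 reads at 2 h and 156 at 0 h and MDM2 with 27 at 2 h and 57 at 0 h. POLH, TP53I3, TRIAP1 and MDM2 were named here after their values were seen. On 3ʹ-most-exon reads alone, 5 targets were higher and 3 lower and the median log2 ratio was 0.10, against -0.24 over all genes on those reads. Of all genes on those reads, 6.32% were higher and 17.5% lower. PERP, GDF15, BAX, BAK1 and BAD lost their calls in the edgeR test (adjusted p = 0.0568, 0.0778, 0.0920, 0.158 and 0.257).

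Immediate early genes showed 6 higher and 2 lower of 21 tested, against 8.53% and 13.4% of all genes tested. Their median log2 ratio was 0.68 (0.21 on 3ʹ-most-exon reads). The higher ones were mostly AP-1 subunits, but JUN (42 reads at 2 h, 49 at 0 h) and FOSL1 (56 at 2 h, 43 at 0 h) were not called. JUND had 396 reads at 2 h and 159 at 0 h (2.46-fold higher, 2.04–2.98, Fisher's exact test, adjusted p = 3.26e-22), JUNB had 36 at 2 h and 3 at 0 h, FOSB had 27 at 2 h and 8 at 0 h, and FOS had 11 at 2 h and 0 at 0 h. EGR3, a zinc finger transcription factor, had 44 reads at 2 h and 4 at 0 h, 10.9-fold higher (3.96–41.7), and BTG2 is on this list too. On 3ʹ-most-exon reads alone, 4 of the list were higher (JUND, JUNB, EGR3 and BTG2) and 2 lower. The shares of all genes on those reads were 6.32% higher and 17.5% lower. FOS and FOSB were thus not called higher on 3ʹ-most-exon reads. KLF2, a transcription factor of quiescence, was lower with 8 reads at 2 h and 22 at 0 h, and MYC, a driver of growth and ribosome production, was lower with 0 at 2 h and 11 at 0 h. FOS, FOSB, JUN, FOSL1, KLF2 and MYC were named after their values were seen.

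Feedback inhibitors of growth factor signalling went both ways, with 3 higher and 2 lower of 11, against 8.53% and 13.4% of all genes tested. Besides DUSP14, DUSP5, a nuclear phosphatase of ERK, had 13 reads at 2 h and 1 at 0 h, and ERRFI1, an inhibitor of the EGF receptor chosen after its values were seen, had 13 at 2 h and 1 at 0 h. DUSP6, the cytoplasmic phosphatase of ERK, fell to 14 reads at 2 h, against 78 at 0 h (5.63-fold lower, 3.16–10.8), and SPRY4, a Sprouty inhibitor of the RAS pathway, to 47 at 2 h, against 125 at 0 h. The median log2 ratio of the list was 0.41, but -0.88 on 3ʹ-most-exon reads, where none of its genes was higher and 3 were lower. Of all genes on 3ʹ-most-exon reads, 6.32% were higher and 17.5% lower. NF-κB related genes gave 2 higher and 1 lower of 12, against 8.53% and 13.4% of all genes tested. Their median log2 ratio was 0.46, but -0.03 on 3ʹ-most-exon reads. NFKBIZ, a nuclear regulator of NF-κB, had 35 reads at 2 h and 1 at 0 h (34.6-fold higher, 5.82–1406), BIRC2, an inhibitor of apoptosis, had 12 at 2 h and 1 at 0 h, and NFKBIB, an IκB protein, had 4 at 2 h and 26 at 0 h. NFKBIZ had 30 of its reads at 2 h in introns and 0 in the 3ʹ-most exon, and for BIRC2 and DUSP5 all reads at 2 h were intronic. DUSP5 and BIRC2 lost their calls in the edgeR test (adjusted p = 0.0568 and 0.0771).

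Promoter sequences are shown for early and stress genes called higher on all reads, where a textbook core or response element was matched. BAX, BTG2, CDKN1A, DUSP14, ERRFI1, PMAIP1, POLH, TP53I3 and TRIAP1 were searched in the same way and had no match to the TATA box, CRE, AP-1 site, CArG box or NF-κB site, and DUSP5 and EGR3 are named only. RefSeq promoters, 250 bases before to 50 after the start (GRCh38.p14, not the build of the table), matched 4302 of the 5149 genes by symbol. The TATA box was searched as TATAAA, the CRE as TGACGTCA, the AP-1 site as TGANTCA, the E-box as CACGTG, and the CArG box and the NF-κB site by name, each on both strands. Capitals mark the matched motif and all sequences are written 5ʹ to 3ʹ along the gene's strand.
FOS TATA box, chr14:75278786-75278809, plus strand: aacgcttgtTATAAAagcagtggc
FOSB TATA box, chr19:45467957-45467980, plus strand: tcccgggcaTATAAAtacaggctg
JUNB TATA box, chr19:12791446-12791469, plus strand: ctagcgcggTATAAAggcgtgtgg
GDF15 TATA box, chr19:18386120-18386143, plus strand: tccggggacTATAAAggccggtcc
JUND CRE, chr19:18281807-18281830, minus strand: cgcccccaTGACGTCAacccacaa
BIRC2 CRE, chr11:102347199-102347222, plus strand: gggcgcgcTGACGTCAtcgtgcgt
NFKBIZ NF-κB site, chr3:101849268-101849291, plus strand: cgctgtcGGGGTTTCCCggtgaag

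In FOS, FOSB, JUNB and GDF15 the TATA box began at positions -33, -30, -31 and -29 from the start. The CRE began at -200 in JUND and at -167 in BIRC2, and the NF-κB site of NFKBIZ at -239. GDF15 also held an NF-κB site at -166, on the strand opposite to the gene. A TATA box was found in 8.22% of the 365 higher genes with a promoter, 4.26% of the 587 lower genes, 5.21% of all 4302 genes tested and 11.5% of all promoters in the table. The CRE was in 3.56% of higher and 3.07% of lower genes (3.23% of genes tested, 1.85% of all promoters), and the AP-1 site in 5.21% of higher and 4.43% of lower genes (4.77% of genes tested, 7.71% of all promoters). For the E-box, which MYC and related factors bind, the shares were 9.86% of higher and 12.9% of lower genes (10.99% of genes tested, 7.26% of all promoters). The NF-κB site was in 14.8% of higher and 14.5% of lower genes (13.2% of genes tested, 11.3% of all promoters) and the CArG box in 1.10% of higher and 0.341% of lower genes (0.976% of genes tested, 1.29% of all promoters). A match is a description of letters and no test was made.

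Of 23 nucleotide excision repair genes, 3 were higher and 2 lower (median log2 ratio 0.38), a share of calls near the 21.9% of all genes tested. LIG1, the ligase that seals repair patches, had 70 reads at 2 h and 28 at 0 h (2.47-fold higher, 1.57–3.98, Fisher's exact test, adjusted p = 2.46e-04). GTF2H1, a subunit of the helicase complex TFIIH, had 31 reads at 2 h and 8 at 0 h. RAD23B, a partner of the damage sensor XPC, went the other way with 24 reads at 2 h and 62 at 0 h, as did GTF2H3, also of TFIIH and chosen after its values were seen, with 6 at 2 h and 21 at 0 h. For GTF2H1, all 31 reads at 2 h and 7 at 0 h were intronic. LIG1, RAD23B and GTF2H1 lost their calls in the edgeR test (adjusted p = 0.103, 0.103 and 0.0621).

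In DNA damage signalling and other repair, 2 were higher and 3 lower of 26, against 8.53% and 13.4% of all genes tested. The median log2 ratio was 0.01, or -0.02 on 3ʹ-most-exon reads. WEE1, the kinase that holds back entry into mitosis, had 19 reads at 2 h, all intronic, and 1 at 0 h (18.8-fold higher, 2.99–781). XRCC1, a scaffold of single-strand break repair, had 19 reads at 2 h and 5 at 0 h. XRCC5, the Ku80 end-joining protein, was lower with 37 reads at 2 h and 83 at 0 h. XRCC1 and XRCC5 lost their calls in the edgeR test (adjusted p = 0.152 and 0.144). NBN, of the break sensing complex and named after its values were seen, was lower with 4 reads at 2 h and 15 at 0 h.

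Of 28 mitosis and cell cycle genes, 1 was higher and 6 lower, against 8.53% and 13.4% of all genes tested, and the median log2 ratio was -0.44. Beside CKS2 and AURKA, KIF11, a spindle motor, had 10 reads at 2 h and 41 at 0 h (4.15-fold lower, 2.04–9.28), and CCNB1, the mitotic cyclin B1, had 24 at 2 h and 61 at 0 h (2.57-fold lower, 1.58–4.31). CDK2 and NUF2 were lower and CDC25C, the phosphatase that opposes WEE1, was higher with 10 reads at 2 h and 0 at 0 h. Those 3 were chosen after their values were seen. CCNB1 lost its call in the edgeR test (adjusted p = 0.110). For DNA replication, 1 was higher and 3 lower of 20, with a median log2 ratio of 0.08, or -0.39 on 3ʹ-most-exon reads. TYMS, which makes thymidylate, had 73 reads at 2 h and 181 at 0 h and lost its call in the edgeR test (adjusted p = 0.0525). ORC5, an origin recognition subunit, had 26 at 2 h and 87 at 0 h, and MCM10, an initiation factor, had 20 at 2 h and 67 at 0 h. FEN1, the flap endonuclease, had 12 reads at 2 h and 0 at 0 h, at least 3.96-fold higher.

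Sterol genes had the lowest median of the lists, with a log2 ratio of -0.73 over 17 genes, of which 5 were lower and 0 higher. Over all genes tested, 13.4% were lower and 8.53% higher. SQLE, an oxygenase of cholesterol synthesis, had 34 reads at 2 h and 152 at 0 h (4.52-fold lower, 3.10–6.76, Fisher's exact test, adjusted p = 9.77e-18). MSMO1, a demethylating oxidase, had 34 reads at 2 h and 83 at 0 h, and SCD, a fatty acid desaturase named after its values were seen, had 10 at 2 h and 27 at 0 h. All reads of MSMO1 were in the 3ʹ-most exon. MSMO1 lost its call in the edgeR test (adjusted p = 0.102).

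**Figure D2:**
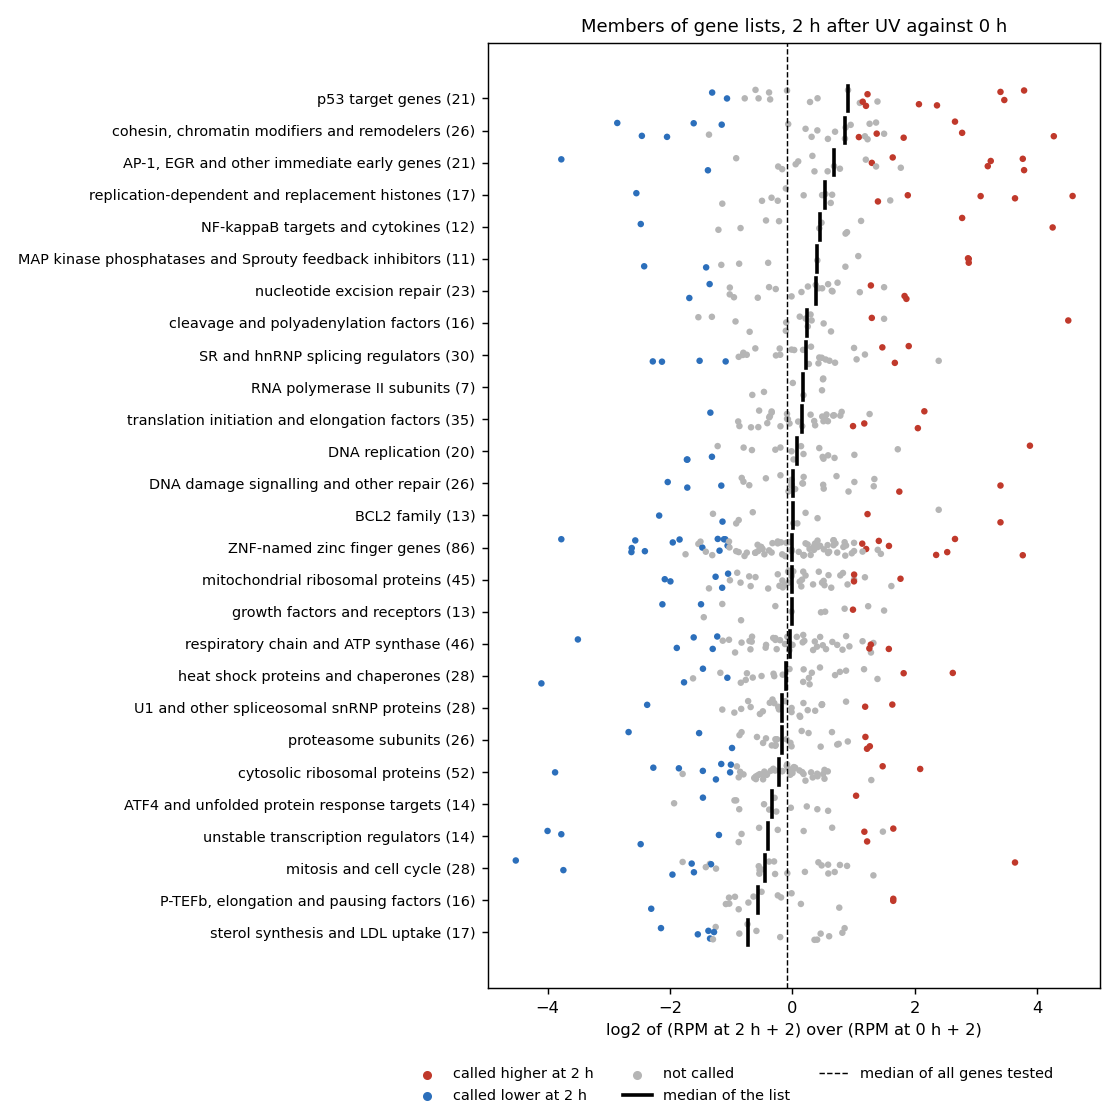
Log2 ratio of expression at 2 h over 0 h (2 RPM added, horizontal axis) for each tested member of 27 gene lists, with the number tested in parentheses. Red members were called higher, blue lower and grey not called, black bars are list medians and the dashed line is the median of all genes tested, -0.09. The medians run between 0.91 for p53 target genes and -0.73 for sterol genes.

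Histone genes, whose replication-dependent members normally lack a poly(A) tail, gave 5 higher and 1 lower of 17. Over all genes tested, 8.53% were higher and 13.4% lower. HIST1H3B had 20 reads at 2 h and 0 at 0 h, at least 6.59-fold higher, and HIST3H2BB had 10 at 2 h and 0 at 0 h. HIST1H3A had 15 reads at 2 h and 1 at 0 h, HIST1H4J had 36 at 2 h and 13 at 0 h, and H3F3B, a replacement H3.3 gene with a poly(A) tail, had 21 at 2 h and 5 at 0 h. H2AFY2, a macroH2A gene, was lower with 1 read at 2 h and 10 at 0 h. H3F3B and H2AFY2 were named after their values were seen. Histone genes are near-identical copies, and how reads that fit several copies were assigned is not given in the sources used here. HIST1H4J lost its call in the edgeR test (adjusted p = 0.139).

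Of 26 cohesin and chromatin genes, 6 were higher and 5 lower, against 8.53% and 13.4% of all genes tested. Their median log2 ratio was 0.86. CHD4, the helicase of the NuRD complex, had 91 reads at 2 h and 42 at 0 h, and KAT6A, a histone acetyltransferase, had 16 at 2 h and 0 at 0 h, of which 15 were intronic. SUZ12, a core subunit of Polycomb complex PRC2, had 3 reads at 2 h and 27 at 0 h (9.10-fold lower, 2.80–46.9), and SMARCB1, a core SWI/SNF subunit, had 7 at 2 h and 42 at 0 h. On 3ʹ-most-exon reads alone, 2 of the list were higher and 5 lower, and the median log2 ratio was 0.31. The shares of all genes on those reads were 6.32% higher and 17.5% lower. CHD4 lost its call in the edgeR test (adjusted p = 0.158). Among 14 unstable transcription regulators, 3 were higher and 4 lower (median log2 ratio -0.39). ID1, an inhibitor of basic helix-loop-helix factors, had 100 reads at 2 h and 42 at 0 h, SOX12 had 0 at 2 h and 13 at 0 h, and ETS2 had 25 at 2 h and 58 at 0 h. ID1 and ETS2 lost their calls in the edgeR test (adjusted p = 0.103 and 0.161).

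Genes of transcription elongation gave 2 higher and 1 lower of 16, against 8.53% and 13.4% of all genes tested (median log2 ratio -0.57). HEXIM1, the inhibitor of the elongation kinase P-TEFb, had 62 reads at 2 h and 19 at 0 h (3.23-fold higher, 1.90–5.72), and LARP7, which holds P-TEFb inactive on the 7SK RNA, had 24 at 2 h and 7 at 0 h. RTF1, a PAF complex subunit, was lower with 4 reads at 2 h and 23 at 0 h. None of 7 RNA polymerase II subunit genes was called by Fisher's exact test or by edgeR. POLR2A, the largest subunit, had 30 reads at 2 h and 21 at 0 h, a ratio of 1.41 (0.782–2.60). LARP7 lost its call in the edgeR test (adjusted p = 0.135).

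RNA processing genes were mixed, and their counts are read against 8.53% higher and 13.4% lower over all genes tested. For spliceosomal snRNP proteins, 2 were higher and 1 lower of 28 (median log2 ratio -0.17). U2AF1, which recognises 3ʹ splice sites, had 102 reads at 2 h and 32 at 0 h (3.15-fold higher, 2.10–4.85). Of the U1 proteins, SNRNP70 was higher with 130 reads at 2 h and 56 at 0 h (2.30-fold, 1.67–3.20, Fisher's exact test, adjusted p = 9.85e-07), and SNRPA, not called, had 49 at 2 h and 61 at 0 h, 1.26-fold lower with an interval of 0.850–1.87. PRPF3, of the tri-snRNP, was lower with 3 reads at 2 h and 19 at 0 h. Among SR and hnRNP proteins, 3 were higher and 4 lower of 30 (median log2 ratio 0.22, or -0.20 on 3ʹ-most-exon reads). SRSF9 had 214 reads at 2 h and 76 at 0 h, RBM39 had 45 at 2 h and 198 at 0 h (4.45-fold lower, 3.20–6.29), HNRNPU had 104 at 2 h and 296 at 0 h, and HNRNPF had 7 at 2 h and 37 at 0 h. Of 16 cleavage and polyadenylation genes, 2 were higher and 0 lower, both encoding poly(A) binding proteins (median log2 ratio 0.23, or -0.10 on 3ʹ-most-exon reads). PABPC1 had 103 reads at 2 h and 41 at 0 h, and PABPC4 had 19 at 2 h and 0 at 0 h, of which 17 were intronic. SNRNP70, PRPF3 and PABPC1 lost their calls in the edgeR test (adjusted p = 0.0989, 0.0544 and 0.0771).

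Cytosolic ribosomal protein genes had 2 higher and 8 lower of 52, against 8.53% and 13.4% of all genes tested, and 42 had no call. Their median log2 ratio was -0.23 (-0.13 with TMM factors), with summed reads of 17262 at 2 h and 21850 at 0 h. RPLP1, of the ribosomal stalk, had 1657 reads at 2 h and 3672 at 0 h (2.24-fold lower, 2.11–2.38), RPS6, a target of growth signalling, had 91 at 2 h and 328 at 0 h, and RPS16 had 273 at 2 h and 548 at 0 h. RPL14 was higher with 758 reads at 2 h and 176 at 0 h, 4.26-fold (3.61–5.05). These genes have many processed pseudogenes, and how shared reads were assigned is not given in the sources used here. RPLP1 and RPS16 lost their calls in the edgeR test (adjusted p = 0.0569 and 0.122). Of 35 translation factor genes, 4 were higher and 1 lower, against 8.53% and 13.4% of all genes tested. On 3ʹ-most-exon reads alone 2 were higher and 1 lower, against 6.32% and 17.5% of all genes on those reads. The median log2 ratio was 0.16, or -0.01 on 3ʹ-most-exon reads. EIF4G3, a scaffold of initiation, had 48 reads at 2 h and 10 at 0 h, and EEF1D, an elongation factor subunit, had 32 at 2 h and 7 at 0 h. Of the EIF4G3 reads, 47 at 2 h and 9 at 0 h were intronic. EIF3E, an initiation factor subunit, was lower with 29 reads at 2 h and 74 at 0 h, and GSPT1, the termination factor eRF3a, was higher with 47 at 2 h and 23 at 0 h. EIF3E and GSPT1 lost their calls in the edgeR test (adjusted p = 0.0918 and 0.279).

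Mitochondrial and proteostasis lists were close to the background of 8.53% higher and 13.4% lower genes. Mitochondrial ribosomal proteins gave 3 higher and 5 lower of 45 (median log2 ratio -0.01, 0.08 with TMM factors), with MRPL55 at 26 reads at 2 h and 105 at 0 h and MRPL18 at 16 reads at 2 h and 70 at 0 h. Respiratory chain genes gave 3 higher and 5 lower of 46 (median -0.05, 0.05 with TMM factors). UQCRC1, a complex III core subunit, had 98 reads at 2 h and 32 at 0 h, against the fall of NDUFA6. Proteasome subunits gave 3 higher and 3 lower of 26, but their summed reads were 11113 at 2 h and 6051 at 0 h, carried by PSMA7 with 4801 at 2 h and 1978 at 0 h and PSMD9, an assembly chaperone, with 4474 at 2 h and 1903 at 0 h. PSMC3, an ATPase of the proteasome, had 442 reads at 2 h and 191 at 0 h, while PSMD2, a scaffold subunit, had 323 at 2 h and 921 at 0 h. PSMC3 lost its call in the edgeR test (adjusted p = 0.0627). Heat shock and chaperone genes gave 2 higher and 4 lower of 28. HSPA5, the ER chaperone BiP, had 75 reads at 2 h and 206 at 0 h (2.78-fold lower, 2.12–3.67), HSPA13 had 21 at 2 h and 73 at 0 h, and DNAJC3, a brake of the kinase PERK, had 119 at 2 h and 247 at 0 h. DNAJC3 lost its call in the edgeR test (adjusted p = 0.120).

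Over the 14 targets of ATF4 and the unfolded protein response, 1 was higher and 1 lower (median log2 ratio -0.34). These counts and those below are read against 8.53% higher and 13.4% lower over all genes tested. SLC3A2, an amino acid transporter subunit, had 57 reads at 2 h and 27 at 0 h. Among 13 growth factor and receptor genes, 1 was higher and 2 lower (median -0.01, 0.08 with TMM factors). On 3ʹ-most-exon reads alone their median was -1.12, and 0 were higher and 4 lower. The shares of all genes on those reads were 6.32% higher and 17.5% lower. NOTCH1, the Notch receptor, had 29 reads at 2 h and 128 at 0 h (4.46-fold lower, 2.96–6.93), EPHB4, a receptor of ephrin-B2, had 26 at 2 h and 74 at 0 h, and FGFR1 was higher with 59 at 2 h and 29 at 0 h. SLC3A2, EPHB4 and FGFR1 lost their calls in the edgeR test (adjusted p = 0.232, 0.0545 and 0.257). SLC3A2 and FGFR1 were also not called on 3ʹ-most-exon reads. In 86 zinc finger genes named ZNF, 8 were higher and 13 lower, and the median was -0.01 (0.07 with TMM factors). ZNF398 had 5 reads at 2 h and 35 at 0 h, ZNF146 had 4 at 2 h and 29 at 0 h, and ZNF410 had 65 at 2 h and 21 at 0 h. The lists covered a minority of the calls, since 364 of the 439 higher and 606 of the 690 lower genes were in none of them.

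By pA type, intronic pAs took 8.46% of the reads at 2 h (95% exact interval 8.38–8.55%) and 6.86% at 0 h (6.79–6.94%), upstream exons 0.309% at 2 h and 0.221% at 0 h, and 3ʹ-most exons the rest. A single gene, NAP1L1, held 5957 of the 37025 intronic reads at 2 h and 8787 of the 29719 at 0 h. The difference between 2 h and 0 h was wider in the number of pAs than in the shares. Reads were found at 7399 intronic pAs at 2 h against 3825 at 0 h, but at 10599 3ʹ-most-exon pAs at 2 h against 12705 at 0 h. Among pAs with at least 5 reads, 414 intronic pAs had reads only at 2 h and 87 only at 0 h, while 271 3ʹ-most-exon pAs had reads only at 2 h and 497 only at 0 h. In upstream exons the numbers were 22 only at 2 h and 4 only at 0 h.

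A rise of a gene's reads was therefore not always a rise of its full-length transcript. Of the 439 higher genes, 254 were also called higher on 3ʹ-most-exon reads alone, 185 were not, and 0 were called lower. In 142 of them (32.3%) more than 50% of the added RPM was intronic, close to the 31.1% of the 2296 genes with any higher RPM. CDKN1A was among these, with 149 reads in introns and 78 in the 3ʹ-most exon at 2 h, against 6 and 47 at 0 h. Its 3ʹ-most-exon reads alone were higher (Fisher's exact test, adjusted p = 0.0250) but under the 2-fold limit, and so were not called. In contrast, BTG2, JUNB, JUND, GDF15, ID1 and HEXIM1 had all their reads in the 3ʹ-most exon. Of the 690 lower genes, 622 were called lower on 3ʹ-most-exon reads alone, and in 43 (6.23%) over 50% of the lost RPM was intronic, against 8.90% of the 2853 genes with any lower RPM.

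**Figure D3:**
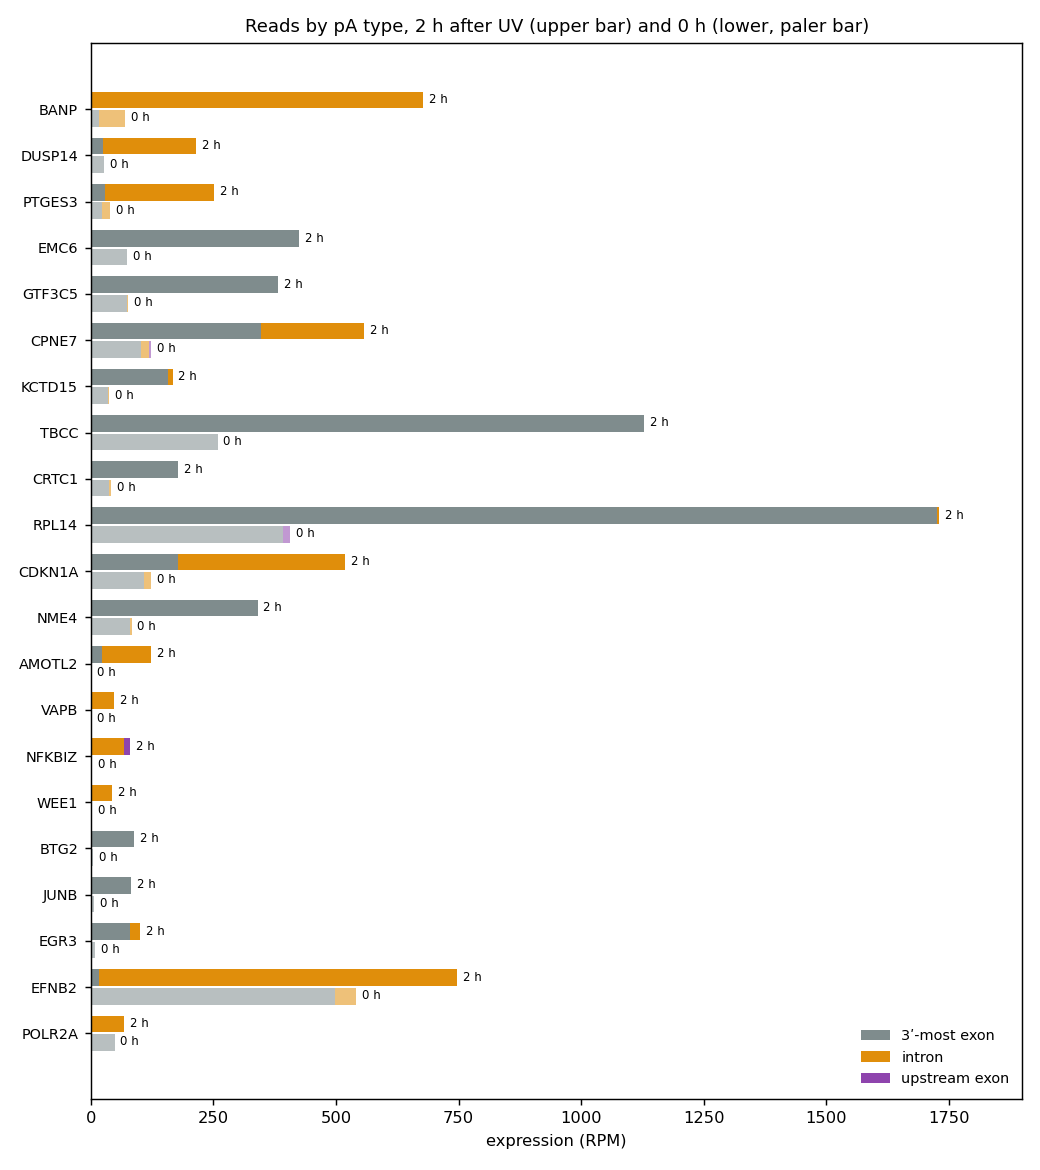
RPM of 21 genes by pA type, with the upper bar of each pair for 2 h after UV and the lower, paler bar for 0 h. Grey is 3ʹ-most exon, orange intron and purple upstream exon. BANP, DUSP14, PTGES3, EFNB2 and POLR2A are mostly orange at 2 h, while EMC6, TBCC, RPL14, BTG2 and JUNB are grey.

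For intron-APA, all intronic reads of a gene were compared with all its 3ʹ-most-exon reads, and a gene was called at p under 0.05 in Fisher's exact test and a change above 5 percentage points. The intronic share was higher at 2 h in 510 of 2758 genes tested (18.5%) and lower in 44 (1.6%). With adjusted p-values the numbers were 222 (8.05%) and 10 (0.363%). Where both libraries held 20 reads or more of a gene, POLR2A changed most, with 29 reads in introns and 1 in the 3ʹ-most exon at 2 h, against 0 and 21 at 0 h, which is an intronic share of 96.7% (82.8–99.9%) at 2 h against 0% (0–16.1%) at 0 h (Fisher's exact test, p = 1.92e-13). EFNB2, the ligand ephrin-B2, had 320 reads in introns and 7 in the 3ʹ-most exon at 2 h and 18 and 216 at 0 h, so that its intronic share was 97.9% at 2 h, against 7.69% at 0 h (Fisher's exact test, p = 1.45e-122). In both, the intronic isoform gained reads while the full-length isoform lost them, and neither gene was called for expression as a whole.

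Genes of several roles followed. E2F1, a transcription factor of S phase entry, had 30 reads in introns and 18 in the 3ʹ-most exon at 2 h and 1 and 17 at 0 h, and CDKN1A had an intronic share of 65.6% (59.1–71.8%) at 2 h and 11.3% (4.27–23.0%) at 0 h. COTL1, an actin-binding protein, had 35 reads in introns and 30 in the 3ʹ-most exon at 2 h and 0 and 61 at 0 h. For SLC2A1, the glucose transporter GLUT1, the intronic share was 79.5% at 2 h and 23.1% at 0 h, for CNOT1, the scaffold of the CCR4-NOT deadenylase, 86.2% at 2 h and 27.3% at 0 h, and for ELP6, an Elongator subunit, 78.8% at 2 h and 19.0% at 0 h. ASAP1, a regulator of ARF GTPases, had 60.9% at 2 h and 4.76% at 0 h. TFPI, a coagulation inhibitor, had 77.8% at 2 h and 22.4% at 0 h, PCNXL4 had 92.7% at 2 h and 39.1% at 0 h, and DSCR3, a protein of endosomal sorting, had 39.3% at 2 h and 4.40% at 0 h. All of these passed with adjusted p-values as well, the largest being 0.00116 for CNOT1 (Fisher's exact test).

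In most of these genes, 1 intronic pA held most intronic reads at 2 h (positions in hg19). In CDKN1A it lay at position 36648636 of chromosome 6, plus strand, 6473 bases upstream of the main 3ʹ-most-exon pA, with 128 reads at 2 h and 4 at 0 h. In EFNB2 the pA lay at position 107180737 of chromosome 13, minus strand, 38191 bases upstream, with 244 reads at 2 h and 6 at 0 h. The main intronic pA of POLR2A, at position 7388676 of chromosome 17, plus strand, 29257 bases upstream, had 16 reads at 2 h and 0 at 0 h. That of BANP, at position 87986354 of chromosome 16, plus strand, had 295 reads at 2 h and 22 at 0 h. The DUSP14 pA, at position 35853650 of chromosome 17, plus strand, had 76 at 2 h and 0 at 0 h. TFPI and ASAP1 differed, with 13 and 5 reads at their main intronic pA at 2 h and reads at 9 of 15 and at 14 of 16 listed intronic pAs.

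**Figure D4:**
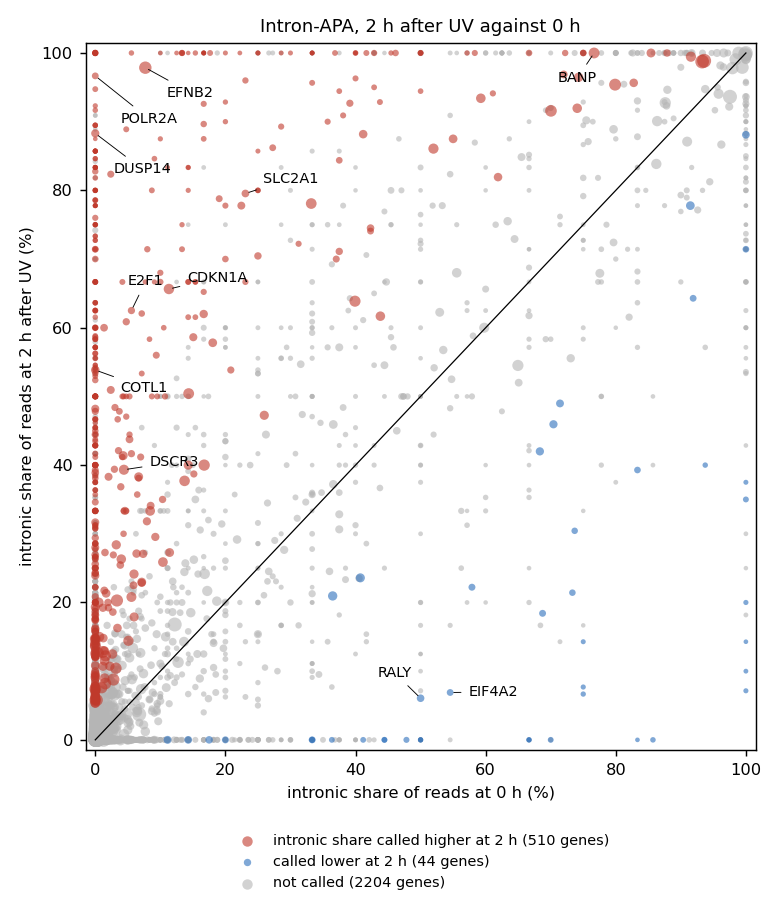
Intronic share of the intronic and 3ʹ-most-exon reads of each of 2758 genes at 2 h after UV (vertical axis, %) against 0 h (horizontal axis, %), with point size growing with the reads. The 510 red genes, above the line of equal shares, were called higher at 2 h and the 44 blue genes lower.

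Added up over the 510 genes, intronic reads came to 8508 at 2 h against 2585 at 0 h, and 3ʹ-most-exon reads to 9453 at 2 h against 18504 at 0 h. As the genes were called on these same reads, a rise of intronic relative to 3ʹ-most-exon reads is built into the choice. Where neither kind of read was missing at either time (171 genes), intronic reads had a median log2 ratio of 2.05 and 3ʹ-most-exon reads one of -1.38. As 297 of the 510 had 0 intronic reads at 0 h, many shifts start from an undetected isoform. Summed over pAs, 37 of the 510 (7.25%) were called higher for expression and 84 (16.5%) lower, against 8.19% and 11.97% of all genes tested for intron-APA. On 3ʹ-most-exon reads alone, 1 was higher and 181 were lower, and since the intron-APA test uses those same reads, these counts are not independent of it.

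The opposite change was rare. EIF4A2, an RNA helicase of translation initiation, had 2 reads in introns and 27 in the 3ʹ-most exon at 2 h and 12 and 10 at 0 h, and RALY, an hnRNP protein, had 2 and 31 at 2 h and 23 and 23 at 0 h. These changes passed with adjusted p = 0.00670 and 9.19e-04 (Fisher's exact test). ABCB8, a mitochondrial transporter, had an intronic share of 42.0% at 2 h and 68.3% at 0 h, and BUB3, a spindle checkpoint protein, had 49.0% at 2 h and 71.4% at 0 h. After adjustment neither passed (adjusted p = 0.0659 and 0.176, Fisher's exact test). Added up over the 44 genes, intronic reads came to 279 at 2 h against 599 at 0 h, and 3ʹ-most-exon reads to 940 at 2 h against 372 at 0 h.

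By list, the share of genes with a higher intronic share is read against 18.5%. It was 6 of 13 for p53 target genes, 5 of 11 for elongation factors, 4 of 9 for feedback inhibitors of growth factor signalling, 6 of 15 for mitosis and cell cycle, 4 of 10 for DNA replication, 6 of 17 for nucleotide excision repair, 8 of 23 for SR and hnRNP proteins and 8 of 28 for translation factors. For ATF4 and unfolded protein response targets it was 3 of 8, and for immediate early genes 3 of 9. Growth factor and receptor genes had 4 of 12, and RNA polymerase II subunits 1 of 2. At the other end it was 0 of 14 for sterol genes, 0 of 7 for histones and 1 of 15 for mitochondrial ribosomal proteins. Cytosolic ribosomal proteins had 2 of 25, cohesin and chromatin genes 2 of 18 and the respiratory chain 2 of 17. RBM39, with 9 reads in introns and 36 in the 3ʹ-most exon at 2 h and 1 and 194 at 0 h, and EIF3E, with 17 and 12 at 2 h and 11 and 62 at 0 h, were lower in expression while their intronic share was higher.

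For 3ʹUTR-APA, the 2 most abundant pAs of the 3ʹ-most exon were compared in 2638 genes under the same thresholds. The proximal share was higher at 2 h in 207 genes (7.85%) and lower in 181 (6.86%), and with adjusted p-values in 74 (2.81%) and 52 (1.97%). The pAs lay a median of 578 bases apart in the 207 genes and 615 in the 181, against 555.5 over all genes tested. Shifts thus went both ways in similar numbers. TM4SF1, a membrane protein of the tetraspanin-like L6 family, had 124 proximal and 8 distal reads at 2 h, against 65 and 333 at 0 h, which puts its proximal share at 93.9% (88.4–97.3%) at 2 h against 16.3% (12.8–20.3%) at 0 h (Fisher's exact test, p = 2.75e-61). Its proximal and distal pAs lay 649 bases apart on chromosome 3, at 149087458 and 149086809 (hg19, minus strand), and its expression was lower, with 133 reads at 2 h and 400 at 0 h. KDELR1 had 6 proximal and 3 distal reads at 2 h and 8 and 110 at 0 h, so that the loss of its reads fell on the distal pA.

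Other shifts to the proximal pA were in GFER, a thiol oxidase, whose proximal share was 97.7% at 2 h against 39.4% at 0 h, SAR1A, a GTPase of ER export, with 100% at 2 h and 50% at 0 h, and HEATR1, a nucleolar protein of ribosome synthesis, with 80.5% at 2 h and 35.9% at 0 h. DDX18, an RNA helicase, had 57.7% at 2 h and 12.9% at 0 h, and SNRPB2, a U2 snRNP protein, had 57.2% at 2 h and 22.3% at 0 h. None of these 5 was called for expression. To the distal pA went MCL1, an antiapoptotic BCL2 protein with a short-lived mRNA, with 2 proximal and 18 distal reads at 2 h, against 33 and 8 at 0 h (Fisher's exact test, p = 1.53e-07). DUSP6 had 5 proximal and 9 distal reads at 2 h and 73 and 3 at 0 h, so that its fall was a fall of the proximal isoform. NOTCH1 had a proximal share of 50% at 2 h against 74.1% at 0 h, which did not pass after adjustment (Fisher's exact test, adjusted p = 0.213). EIF4A3, a core protein of the exon junction complex, had 37.5% at 2 h and 100% at 0 h, MUS81, a nuclease of recombination, had 51.6% at 2 h and 100% at 0 h, VMP1, an autophagy protein, had 38.1% at 2 h and 86.2% at 0 h, and OGFOD3 had 16.7% at 2 h and 66.7% at 0 h. For DDX18 and MCL1 the direction depended on the pair of pAs, since the most proximal and most distal pA gave changes of -3.57 and 30.8 percentage points.

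**Figure D5:**
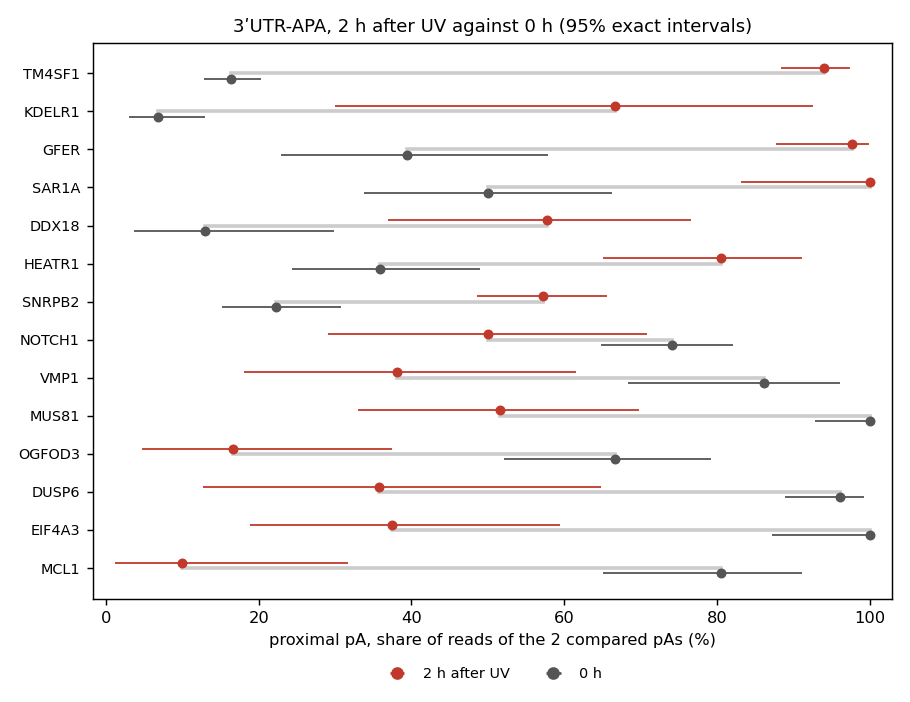
Share of the proximal pA in the reads of the 2 compared 3ʹ-most-exon pAs (%) for 14 genes, at 2 h after UV (red, upper point) and 0 h (dark grey, lower point), with 95% exact intervals of counting error. TM4SF1, at 93.9% at 2 h and 16.3% at 0 h, lies at the top and MCL1, at 10.0% at 2 h and 80.5% at 0 h, at the bottom.

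Expression was lower in 56 and higher in 9 of the 207 genes that moved to the proximal pA, and lower in 32 and higher in 11 of the 181 that moved to the distal pA. Both sets therefore held more lower than higher genes. Over all genes tested for expression, 13.4% were lower and 8.53% higher, and whether the sets differ from this was not tested.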

How the data were processed

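Nuclear RNA of RKO cells at 2 h after UV and at 0 h was sequenced by 3ʹREADS, with 1 library each. The authors aligned reads to hg19 (the submitters' processing notes name CASAVA and Bowtie2, without versions), required 2 or more non-genomic As for a read to mark a pA, and deposited for each pA a value in RPM, normalised to the reads of its library. How reads were clustered into pAs is not given in the sources used here. The RPM column of the intermediate recovery time (1 column) was not used.

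RPM values were turned back into reads, since every value was a whole multiple of the smallest one. Genes were tested with two-sided Fisher's exact tests and Benjamini-Hochberg adjustment over all genes tested. Alternatives covered scaling, read minimum, pA types and thresholds, and edgeR 4.0.16 (exact test, assumed biological coefficient of variation 0.2). Exact (Clopper-Pearson) intervals are at 95%. A fold against 0 reads used a floor of 3 reads. The tests were checked on simulated data. Python 3.11.15, scipy 1.17.1, pandas 2.3.3, matplotlib 3.10.9 and R 4.3.3 were used.

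The members and the 33 gene lists were chosen with earlier results of these data known. Named genes were the 12 largest called rises and falls (the higher library having 50 or more reads and the lower 10 or more), the 5 genes with most reads at a single time each way, up to 4 called genes per list with the smallest p, the 10 genes whose intronic share rose most and the 5 where it fell most, and 5 shifts of the proximal share each way (at least 20 reads in each library), genes the paper names, and the 5 largest rises and falls in RPM. Genes outside this rule are marked in the text, and a few genes within it are not reported here. SNRPC and the 22 nuclear long noncoding RNAs listed had no row in the table and are not analysed here, and protein lengths were not used here. Of the pA rows, 116 share a position with another gene, which touched 31 genes tested.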

Additional observations from a re-analysis of the deposited data

How the results depend on the processing

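With 1 library at each time, no replicate could be left out and no change was tested against biological spread. No paired analysis was possible because each time point has 1 library. Depth limits calls in genes with few reads, where an interval can span more than 10-fold. The 439 higher and 690 lower genes became 174 and 323 with at least 50 reads, 845 and 1108 by fold with no test, and 179 and 261 in edgeR's exact test, all of which were also called by Fisher's exact test. On 3ʹ-most-exon reads 273 genes were higher. TMM factors gave 545 higher and 569 lower genes and moved the median of all genes by 0.10 on the log2 scale. Of the 510 and 44 genes with a higher and a lower intronic share, 222 and 10 passed with adjusted p-values and 183 and 12 when both libraries had 20 or more reads. The 207 and 181 genes of 3ʹUTR-APA became 74 and 52 with adjusted p-values, 105 and 92 when both libraries had 20 or more reads, and 126 and 87 with the most proximal and most distal pA. The intronic share of all reads was 8.85% at 2 h and 5.81% at 0 h without the 10 most abundant genes, and 7.14% at 2 h and 5.56% at 0 h in genes with a 3ʹ-most-exon pA. On 3ʹ-most-exon reads alone the log2 ratio changed sign in DUSP14 (-0.13), POLR2A (-3.56), EFNB2 (-4.80), CNOT1 (-1.81), SLC2A1 (-1.66), ASAP1 (-0.16), COTL1 (-1.02) and PCNXL4 (-1.96), in which that setting leaves out the intronic reads. With the most proximal and most distal pA, the change of the proximal share reversed for DDX18 (-3.57 percentage points) and MCL1 (30.8 percentage points). In the edgeR test 43 of the 156 genes selected by the naming rule lost their call, and with TMM factors 2 did. The 156 include genes that had no call to lose, such as POLR2A, EFNB2 and HSF1, so the share of calls lost is larger. Medians of lists on 3ʹ-most-exon reads are given beside the lists where their sign changed.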

Other observations

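A few further genes, chosen after their values were seen, stood out within the lists. HSF2, a second heat shock transcription factor, had 0 reads at 2 h and 14 at 0 h and was called lower, while HSF1 gained reads without passing the fold limit. HDAC1 and HDAC3, both histone deacetylases, were called lower, HDAC1 with 3 reads at 2 h and 15 at 0 h and HDAC3 with 34 at 2 h and 76 at 0 h. KDM6B, a histone demethylase, had 11 reads at 2 h and 1 at 0 h and was called higher.

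Upstream-exon pAs held few reads. In EEF1D they held 20 reads at 2 h and 1 at 0 h, more than its 4 reads in the 3ʹ-most exon at 2 h, and in NFKBIZ 5 at 2 h and 0 at 0 h. These values were not tested for a change in pA type.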
